A study of Mus musculus with 6 samples.

Results

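The genes described here are 34 named genes of piRNA production, germ granules and transposon repression, out of the 55536 genes of a count table from mouse testis. They were chosen by name, with no measured value in the rule, but with earlier results of these data known. All 34 were found in the table and passed the filter on low counts, which 20744 genes passed. Testes were taken at 4 months of age from 3 strains on the inbred FVB/NJ background, with 2 mice and so 2 libraries per strain. WT mice were FVB/NJ with intact Padi genes. P2KO mice were homozygous for a gene trap allele of Padi2, in which part of the first exon was replaced by LacZ and neomycin resistance sequence. DKO mice carried the same Padi2 allele together with a small frame-shifting deletion in exon 1 of Padi4, made by CRISPR/Cas9 in Padi2-null embryos, and the DKO line descends from a single founder. P2KO and DKO thus share the Padi2 allele, DKO differs from P2KO by the edited Padi4 and the descent of its line, and no Padi4 single knockout is among these libraries. Padi2 and Padi4 encode peptidylarginine deiminases, which convert arginine in proteins to citrulline.

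In animal germ cells, PIWI proteins bind small RNAs of their own, the piRNAs, and use them to recognize transposon transcripts. Long precursor transcripts are cut on the surface of mitochondria, loaded into PIWI proteins, trimmed and methylated at the 3′ end, largely within germ granules that are built from Tudor domain proteins. Tudor domains recognize methylated arginine in PIWI proteins. In the fetal testis the nuclear branch of the pathway leads to DNA methylation of transposons, whereas in adult spermatocytes and round spermatids most piRNAs come from pachytene precursors.

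Each library held between 21939393 and 27306679 counts on genes, and mitochondrial genes took 0.636% to 0.725% of them. The 34 genes together took 0.651% to 0.683% of the counts of a library. The targeted genes were read in each library. The Padi2 count was 47 and 64 in WT, 100 and 55 in P2KO and 59 and 83 in DKO, so it was not lower in the libraries labelled P2KO or DKO. Counts were not split by exon, so where on the gene these reads lie was not tested. The Padi2 counts do not check the labels. P2KO and DKO mean the libraries so labelled throughout. Padi4 had 20 and 43 counts in WT, 11 and 10 in P2KO and 4 and 4 in DKO. Of 68 markers of 9 testis cell types, none was at 0 in every library. In whole testis, fewer cells of a type and less RNA per cell cannot be told apart.

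The 2 genes of the set that passed the test in any comparison were Tdrd1 and Tdrd6, both Tudor domain genes and both higher in DKO than in WT. Tdrd1 (ENSMUSG00000025081) lies on the plus strand of chromosome 19 of GRCm38, from 56826209 to 56870012. Tdrd6 (ENSMUSG00000040140) spans 43615335 to 43630299 of chromosome 17, minus strand. A promoter is shown for Tdrd1 because it had the smallest p of the set in DKO against WT. Of its 3 RefSeq promoter windows, all with a match to the motif below, 1 is shown. That window begins 250 bases before the annotated start of Tdrd1 and ends 50 bases after it. It lies at chr19:56825959-56826258 of GRCm38.p6, has a GC content of 60.3% with 20 CG dinucleotides, and holds the letters AACTG once. These letters are CAGTT read on the other strand, the core of sites bound by MYB proteins, and A-MYB is a known regulator of pachytene piRNA genes. The match is in capitals and begins at base 252 of the window, so it lies past the 250 bases before the start.
Tdrd1 promoter: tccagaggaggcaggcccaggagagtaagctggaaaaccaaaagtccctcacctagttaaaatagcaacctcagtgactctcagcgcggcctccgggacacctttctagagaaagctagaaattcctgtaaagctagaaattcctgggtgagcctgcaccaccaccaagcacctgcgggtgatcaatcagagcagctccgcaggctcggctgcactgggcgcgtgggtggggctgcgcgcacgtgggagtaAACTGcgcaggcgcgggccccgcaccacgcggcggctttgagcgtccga
The motif is common. It was found on either strand in 44.8% of all 32851 promoter windows of the table and in 42.2% of the 45 windows of the 29 member genes that have one. A match is a description of the letters and not evidence of binding.

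Levels per length differed widely among the 34 genes and little between genotypes. Counts per kilobase of merged exons, scaled to the same total of 1000000 in each library (TPM), had a median of 53.9 over the 34 genes against 6.69 over all tested genes. The level exceeded 10 TPM in 28 of the 34 genes, and 31 lay above the median of the tested genes. The highest was Mael, a germ granule protein needed for transposon repression, with 1528 and 1515 TPM in WT, 1576 and 1527 in P2KO and 1567 and 1465 in DKO. It was followed by Gtsf1, a zinc finger partner of PIWI proteins, at a mean of 458 TPM over the 6 libraries, and by the germ cell helicase Ddx4 at 391 TPM. The gap between Mael and Gtsf1 was far larger than the spread over libraries, but many neighbors in the order were not separated. Tdrd6 ranged from 248 to 328 TPM over the 6 libraries and Trim28 from 272 to 317 TPM, so their ranges overlapped.

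**Figure D1:**
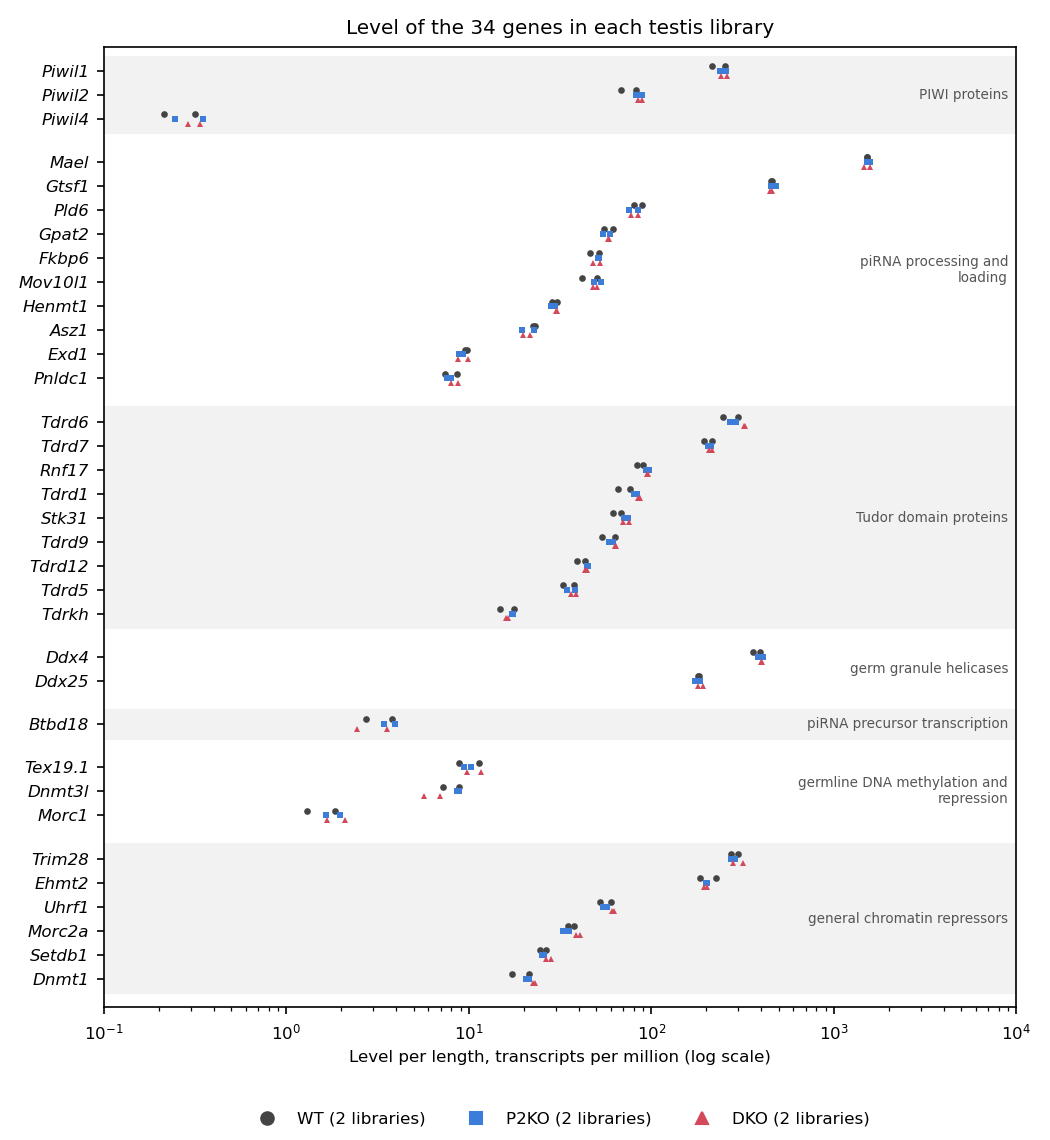
Level per length of each of the 34 genes in each library, in TPM on a log scale. The genes are grouped by role, and each point is 1 library, colored and shaped by genotype. Mael lies at the top at 1529.7 TPM on average and Piwil4 at the bottom at 0.292 TPM on average, and the points of the 3 genotypes lie close together for most genes.

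The lowest levels of the set belonged to a PIWI gene and to a gene of germline repression. Piwil4, the nuclear PIWI protein of fetal germ cells, had 0.314 and 0.213 TPM in WT, 0.246 and 0.350 in P2KO and 0.338 and 0.289 in DKO. It was the only one of the 34 genes with a mean level under 1 TPM. Morc1, which represses transposons in the male germline, had 1.31 and 1.84 TPM in WT, 1.65 and 1.97 in P2KO and 1.67 and 2.10 in DKO. Tex19.1, a germline gene that affects retrotransposons, was the highest of its role by merged exon length (Dnmt3l was the highest by the length of the longest transcript). It had levels of 11.4 and 8.87 TPM in WT, 10.3 and 9.46 in P2KO and 11.7 and 9.81 in DKO. Genotypes overlapped in all 3 genes.

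In the next 3 genes each knockout strain overlapped WT. Pnldc1, the exonuclease that trims piRNA 3′ ends, was the lowest processing gene by merged exon length (Exd1 was the lowest by the length of the longest transcript). It had levels of 7.37 and 8.60 TPM in WT, 8.0 and 7.57 in P2KO and 8.002 and 8.73 in DKO. Tdrkh, the Tudor protein that brings this trimmer to mitochondria, was the lowest Tudor gene, with 17.7 and 14.8 TPM in WT, 17.4 and 17.2 in P2KO and 16.0 and 16.3 in DKO. Tdrkh shares 36.7% of its merged exon bases with Oaz3 on the other strand. Btbd18, a nuclear protein that promotes transcription of pachytene precursors, had 3.78 and 2.74 TPM in WT, 3.44 and 3.93 in P2KO and 2.45 and 3.57 in DKO.

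The helicases stood at higher levels. Ddx4 (VASA) had 393 and 359.9 TPM in WT, 386 and 407 in P2KO and 402 and 398 in DKO. Ddx25, a helicase of the chromatoid body that is needed to complete spermiogenesis, had 182 and 180.3 TPM in WT, 185 and 173 in P2KO and 192 and 180.5 in DKO. Trim28, the corepressor recruited by KRAB zinc finger proteins, had 299 and 272 TPM in WT, 287 and 273 in P2KO and 317 and 281 in DKO. Dnmt1, the maintenance DNA methyltransferase, was the lowest general repressor, with 21.3 and 17.3 TPM in WT, 21.3 and 20.6 in P2KO and 23.0 and 22.4 in DKO. Of these 4 genes, Dnmt1 was the one in which both DKO libraries lay above the other 4 libraries.

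Replicates agreed closely. The median gap between the 2 libraries of a genotype over the 34 genes was 0.124 on the log2 scale in WT, 0.072 in P2KO and 0.064 in DKO, against 0.139, 0.126 and 0.124 over all tested genes. The largest gaps were found for low genes, namely 0.554 for Morc1 in WT, 0.468 for Piwil4 in P2KO and 0.563 for Btbd18 in DKO. Well-counted genes also differed between the WT libraries, with normalized counts apart by 0.153 for Tdrd1, 0.192 for Tdrd6, 0.218 for Piwil2 and 0.236 for Dnmt1. These gaps are to be read beside the fold changes of these genes given below.

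The comparison of DKO with WT asks how the altered Padi2 and Padi4 alleles together go with expression in the testis. In this comparison Tdrd1 and Tdrd6 rose, and the other 32 genes did not pass the test. The 2 calls are 5.88% of the 34 genes, beside 3.22% of all tested genes called in this comparison (2.06% higher and 1.16% lower). This is a small count, and nothing particular to the set is read from it. DESeq2 called the same 2 genes. Unadjusted edgeR p-values were under 0.05 for 7 of the 34 genes, and for 14.1% of all tested genes. Over the 34 genes, log2 fold changes had a median of 0.07 (range -0.35 to 0.26) beside -0.0048 over all tested genes. Values above 0 were found for 24 of the 34, beside 48.8% of all tested genes. Both DKO libraries exceeded both WT libraries for 12 genes (35.3%, beside 21.6% of all tested genes) and lay below both for 2 (5.88%, beside 21.6%). The merged exons of the 34 genes have a median length of 4300 bases against 3330 for all tested genes. With an offset for gene length the median log2 fold change was 0.069, and with upper-quartile scaling, under which the calls over all genes went from 428 higher and 240 lower to 367 and 322, it was 0.048.

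Tdrd1, a scaffold that binds PIWIL2 in the germ granules between mitochondria, had normalized counts of 4149 and 3731 in WT, 4564 and 4429 in P2KO and 4719 and 4699 in DKO. Normalized counts are corrected for the relative size of each library. The DKO libraries were the highest, the P2KO libraries lay between, and no genotype overlapped another. In DKO against WT the log2 fold change was 0.26 with a standard error of 0.061, a rise of 19.6% (95% interval 0.13 to 0.38 on the log2 scale). edgeR's quasi-likelihood (QL) test, with Benjamini-Hochberg correction over all tested genes, gave an adjusted p of 0.0101.

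Tdrd6, a large Tudor protein of the chromatoid body of spermatids, had normalized counts of 20953 and 18348 in WT, 19104 and 20887 in P2KO and 23126 and 23195 in DKO. Both DKO libraries lay above the other 4, and WT and P2KO overlapped. The log2 fold change against WT was 0.24 (standard error 0.059), a rise of 17.9% with a 95% interval of 0.12 to 0.36. The adjusted p was 0.0143 in edgeR's QL test.

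Both calls were lost when any 1 of 3 libraries was left out. In each gene WT replicate 2 had the lowest count of the 6 libraries. Without it the log2 fold change of Tdrd1 was 0.18 (adjusted p = 0.193, edgeR's QL test) and that of Tdrd6 was 0.14 (adjusted p = 0.263). Without WT replicate 1 the values were 0.33 for both genes. Without DKO replicate 1 or DKO replicate 2 the fold changes stayed within 0.23 and 0.26, but the adjusted p of edgeR's QL test was 0.127 and 0.123 for Tdrd1 and 0.135 and 0.153 for Tdrd6. The 2 genes were called under each of the 10 alternatives in scaling, filter, covariates or test that kept all libraries of both genotypes.

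**Figure D2:**
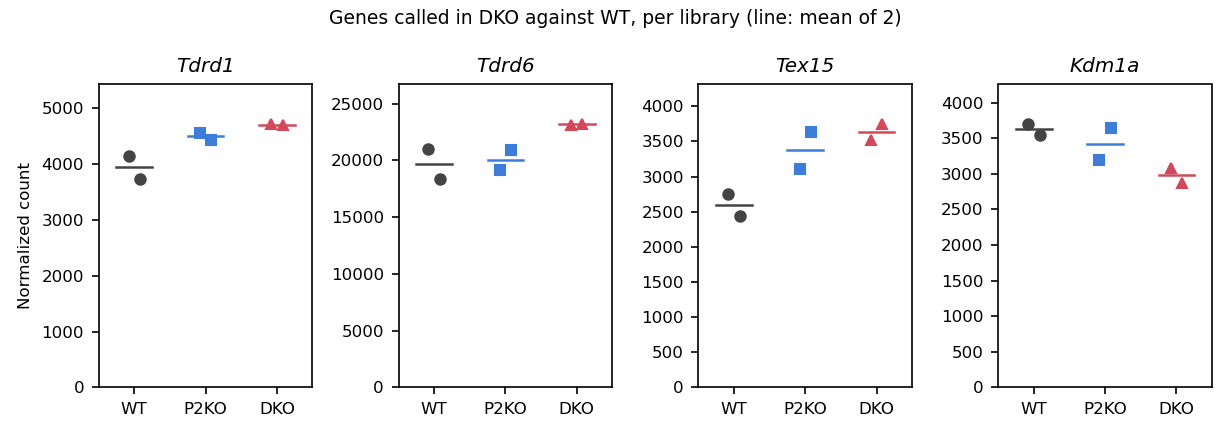
Normalized counts in each library of the 4 genes of the set and of the wider pathway that were called in DKO against WT, on linear axes that start at 0. Points are libraries and lines are the means of 2. Tdrd1, Tdrd6 and Tex15 are higher in both DKO libraries than in both WT libraries, and Kdm1a is lower.

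The other 7 Tudor genes did not pass the test. Between DKO and WT, 8 of the 9 Tudor genes had log2 fold changes above 0, with a median of 0.116, and in 6 of the 9 both DKO libraries exceeded both WT libraries. Over all tested genes, 48.8% were above 0 and 21.6% had both DKO libraries above both WT libraries. Rnf17, a germ granule protein with Tudor and RING domains, had normalized counts of 5611 and 5475 in WT, 6099 and 5918 in P2KO and 5919.7 and 6138 in DKO. Its log2 fold change was 0.12 (adjusted p = 0.326, edgeR's QL test). Stk31, a Tudor protein with a kinase-like domain, had normalized counts of 2218 and 2080.1 in WT, 2432 and 2314 in P2KO and 2436 and 2314 in DKO, with a log2 fold change of 0.15 (adjusted p = 0.293, edgeR's QL test). In both genes the WT libraries lay below all 4 knockout libraries. Tdrd5, Tdrd7, Tdrd9 and Tdrd12, germ granule proteins of which the latter pair are helicases, had log2 fold changes of 0.07, 0.03, 0.12 and 0.07. Tdrkh, at -0.02, was the exception.

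None of the 3 PIWI genes passed the test in DKO against WT, and 1 of them had an unadjusted p under 0.05. Piwil2 (MILI), which is present from fetal germ cells to round spermatids, had normalized counts of 4379 and 3764 in WT, 4384 and 4775 in P2KO and 4691 and 4573 in DKO. WT replicate 2 was the lowest, and the other 5 libraries lay between 4379 and 4775. The log2 fold change was 0.19 (95% interval 0.05 to 0.32, adjusted p = 0.131 by edgeR's QL test), which did not pass. Without WT replicate 1 it was 0.29 and passed the test, and without WT replicate 2 it was 0.08 and did not. Piwil1 (MIWI), the main carrier of pachytene piRNAs, had normalized counts of 11076 and 9828 in WT, 11169.7 and 10587 in P2KO and 11257 and 10687 in DKO. The genotypes overlapped, with a log2 fold change of 0.07 (95% interval -0.05 to 0.19). Piwil4 had normalized counts of 16.9 and 12.0 in WT, 13.3 and 19.16 in P2KO and 18.2 and 15.9 in DKO, and at this depth its 95% interval of -0.63 to 1.14 included a rise of 2-fold.

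The processing and loading genes lay near 0. None of the 10 passed the test or had an unadjusted p under 0.05 in DKO against WT, 4 were above 0 and the median was -0.018. Mael had a log2 fold change of -0.02 (95% interval -0.13 to 0.08) and Gtsf1 of -0.02 (95% interval -0.14 to 0.10). Asz1, a scaffold of germ granules at mitochondria, was the farthest from 0 at -0.15 (95% interval -0.34 to 0.03). Pld6, the mitochondrial nuclease that cuts precursors, stood at -0.08, and Exd1, a partner of the Tudor helicase TDRD12, at -0.07. Gpat2, a mitochondrial protein of primary piRNA production, stood at -0.02 and Henmt1, which methylates piRNA 3′ ends, at 0.01. Fkbp6, a cochaperone in piRNA loading, stood at 0.02 and Pnldc1 at 0.04. Mov10l1, the helicase that feeds precursors into processing, stood at 0.08. The intervals of all 10 genes lay within 0.5 of 0. The germ granule helicases stood at 0.07 (Ddx4) and 0.02 (Ddx25), and Btbd18 at -0.12 (95% interval -0.51 to 0.27).

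Of the genes of DNA methylation and chromatin repression, none passed the test in DKO against WT, and 2 of the 9 had an unadjusted p under 0.05. Dnmt3l, the cofactor of de novo DNA methylation in germ cells, had the lowest fold change of the set. Its normalized counts were 262 and 225 in WT, 259 and 267 in P2KO and 169.6 and 213 in DKO, so that both DKO libraries lay below the other 4. The log2 fold change was -0.35 (95% interval -0.63 to -0.07, adjusted p = 0.201 by edgeR's QL test). It was -0.19 without DKO replicate 1 and -0.52 without DKO replicate 2, and did not pass the test in either fit. Dnmt1 had normalized counts of 1572 and 1334 in WT, 1577 and 1547 in P2KO and 1696 and 1686 in DKO. Both DKO libraries lay above the other 4, and the log2 fold change was 0.22 (95% interval 0.07 to 0.37, adjusted p = 0.0985 by edgeR's QL test). Without WT replicate 1 it was 0.34 and passed the test, and without WT replicate 2 it was 0.11 and did not.

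The 4 other general repressors with values above 0 were Uhrf1, Morc2a, Setdb1 and Trim28. Uhrf1, which brings DNMT1 to replicated DNA, stood at a log2 fold change of 0.12, and Morc2a, an ATPase that works with the HUSH repressor complex, at 0.12. Setdb1, a methyltransferase of histone H3 lysine 9, stood at 0.08 and Trim28 at 0.05, and Ehmt2, which also methylates this residue, stood at -0.06. Morc1 stood at 0.22 (95% interval -0.17 to 0.60) and Tex19.1 at 0.08. Uhrf1 and Setdb1 each have a near-identical copy elsewhere in the annotation (98.8% identity over 240 bases and 99.4% over 645 bases), so counts on these stretches are less certain.

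**Figure D3:**
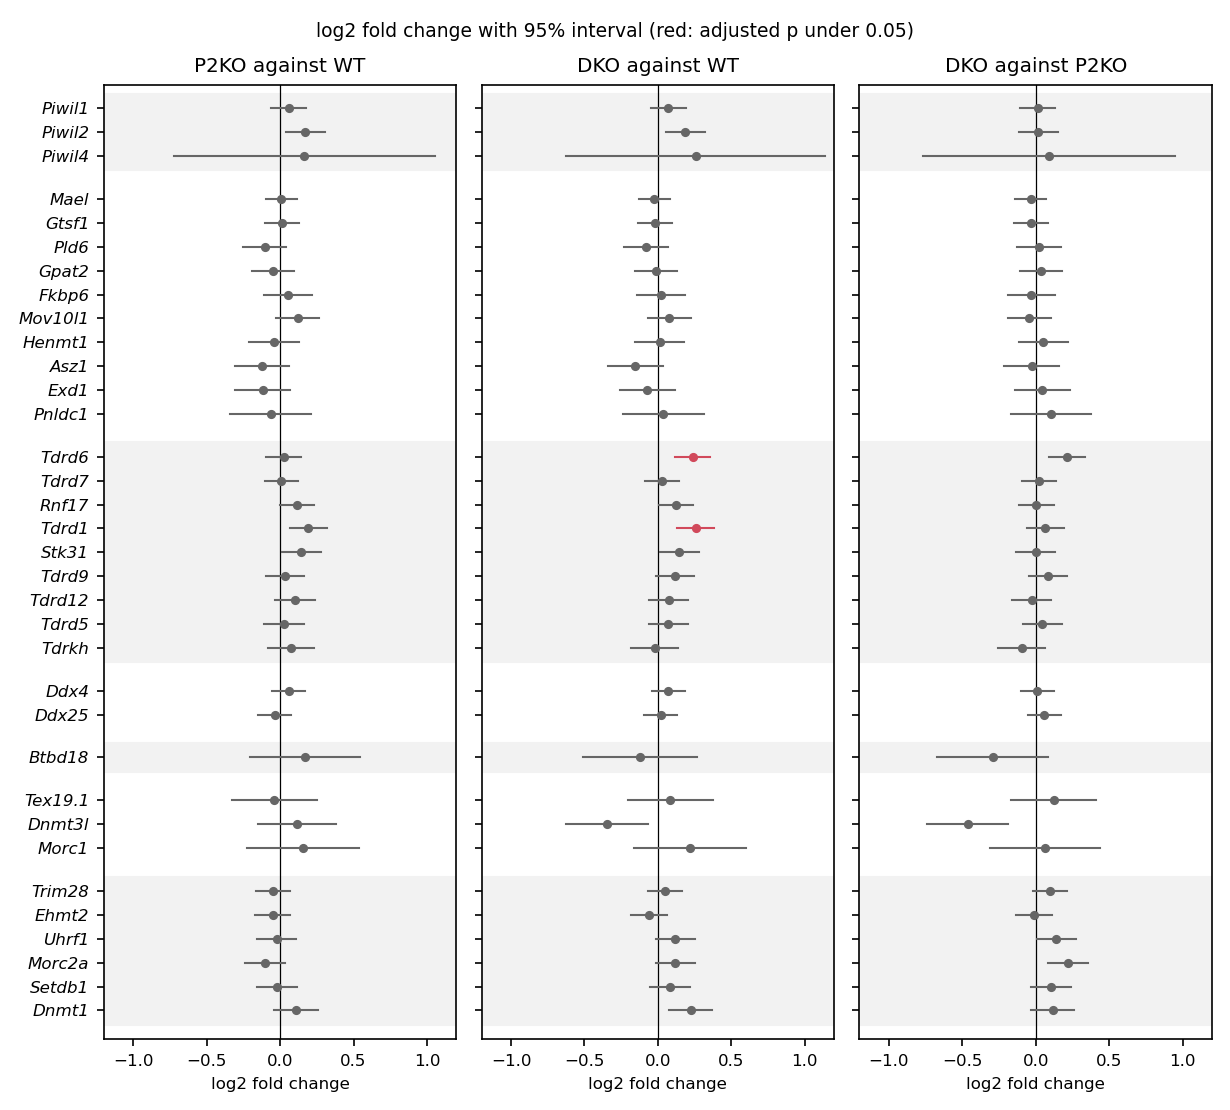
Fitted log2 fold change of each of the 34 genes in the 3 comparisons, with 95% intervals from edgeR's QL fit, grouped by role. Red marks an adjusted p under 0.05. Tdrd1 at 0.26 and Tdrd6 at 0.24 in DKO against WT are the red points, and the intervals of Piwil4, Btbd18 and Morc1 are the widest.

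The comparison of P2KO with WT asks the same of the Padi2 allele alone, with the libraries labelled P2KO set against the same WT libraries. None of the 34 genes was called by edgeR's QL test or by DESeq2, beside 0.337% of all tested genes called by edgeR (0.198% higher and 0.14% lower). Unadjusted edgeR p-values were under 0.05 for 4 genes (8.57% of all tested genes). The median log2 fold change was 0.026 (range -0.12 to 0.19) beside 0.0035 over all tested genes. Of the 34 genes 21 were above 0, beside 51.0% of all tested genes. Both P2KO libraries exceeded both WT libraries for 6 genes (17.6%, beside 18.7% of all tested genes) and lay below both for 2 (5.88%, beside 18.8%). The 95% interval lay within 0.5 of 0 for 31 of the 34 genes and within 1 for 33.

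The 5 genes with the smallest p were Tdrd1, Piwil2, Stk31, Rnf17 and Mov10l1, and none reached the threshold. Tdrd1 had a log2 fold change of 0.19 (95% interval 0.07 to 0.32) with an adjusted p of 0.267 by edgeR's QL test. Piwil2 followed at 0.17 (adjusted p = 0.424, edgeR's QL test). Stk31 stood at 0.14 and Rnf17 at 0.12. Mov10l1 had normalized counts of 2117 and 1819.9 in WT, 2029 and 2247 in P2KO and 2098 and 2047 in DKO, and a log2 fold change of 0.12 with overlapping genotypes. All 9 Tudor genes had values above 0, from 0.01 for Tdrd7 to 0.19 for Tdrd1, and Tdrd6 stood at 0.03 (95% interval -0.09 to 0.15). Without WT replicate 1, Tdrd1 and Piwil2 passed the test, at 0.27 and 0.28, and without WT replicate 2 they stood at 0.12 and 0.06 and did not pass. Without P2KO replicate 2, Piwil2 stood at 0.11. Mov10l1 ranged from 0.01 without WT replicate 2 to 0.23 without WT replicate 1, with 0.19 without P2KO replicate 1 and 0.04 without P2KO replicate 2. It did not pass in any of these fits.

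The comparison of DKO with P2KO sets the 2 knockout strains against each other without the WT libraries in the contrast. None of the 34 genes was called by edgeR's QL test, beside 1.21% of all tested genes (0.607% higher and 0.598% lower), and 4 had an unadjusted p under 0.05 (11.8% of all tested genes). DESeq2 called none in the fit of all 6 libraries, and Tdrd6 in the fit of these 2 genotypes. The median log2 fold change was 0.028 (range -0.46 to 0.22) beside -0.0028 over all tested genes. Of the 34 genes 24 were above 0, beside 49.2% of all tested genes. Both DKO libraries exceeded both P2KO libraries for 7 genes (20.6%, beside 21.1% of all tested genes) and lay below both for 2 (5.88%, beside 21.6%).

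Tdrd6 had the smallest p, with a log2 fold change of 0.21 (95% interval 0.09 to 0.33) and an adjusted p of 0.0665 by edgeR's QL test. Dnmt3l was lower in DKO by a log2 fold change of -0.46 (95% interval -0.74 to -0.19, adjusted p = 0.0896 by edgeR's QL test). Morc2a had normalized counts of 2406 and 2343 in WT, 2115 and 2311 in P2KO and 2484 and 2672 in DKO, so the P2KO libraries were the lowest and the DKO libraries the highest. Its log2 fold change was 0.22 (95% interval 0.09 to 0.36, adjusted p = 0.103 by edgeR's QL test). These 3 genes passed the test when edgeR was run on the 4 libraries of DKO and P2KO alone, and when either WT library was left out of the fit. They did not pass when any 1 of the 4 DKO and P2KO libraries was left out, where the values ranged from 0.15 to 0.29 for Tdrd6, from -0.63 to -0.31 for Dnmt3l and from 0.16 to 0.29 for Morc2a. The value of Dnmt3l nearest 0 came without DKO replicate 1.

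Uhrf1 and Trim28 came next. Uhrf1 had normalized counts of 2545 and 2344 in WT, 2456 and 2354 in P2KO and 2599 and 2708 in DKO, and a log2 fold change of 0.14 (adjusted p = 0.373, edgeR's QL test). Trim28 had normalized counts of 12424.5 and 11853 in WT, 11985 and 11514 in P2KO and 13173 and 11958 in DKO, and a log2 fold change of 0.10 with overlapping genotypes. Its value was 0.02 without DKO replicate 1 and 0.17 without DKO replicate 2, and it did not pass in either fit. Tdrd1 stood at 0.07 (95% interval -0.06 to 0.19), Piwil1 at 0.01, Piwil2 at 0.02 and Piwil4 at 0.09 (95% interval -0.77 to 0.95).

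A wider list of 42 genes of the pathway was examined in the same fits, of which 41 passed the filter. In DKO against WT, 2 of the 41 were called, 1 higher and 1 lower (4.88%, beside 3.22% of all tested genes). In P2KO against WT 1 was called (2.44%, beside 0.337%). In DKO against P2KO none was called by edgeR's QL test or by DESeq2, and 4 had an unadjusted edgeR p under 0.05. The medians of their log2 fold changes were 0.045 in P2KO against WT, 0.04 in DKO against WT and -0.008 in DKO against P2KO.

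Tex15, which is needed for piRNA-directed DNA methylation of transposons in fetal germ cells and for meiotic recombination, was the gene of this list called higher. It had normalized counts of 2754 and 2440.2 in WT, 3113 and 3641 in P2KO and 3526 and 3748 in DKO. All 4 knockout libraries exceeded both WT libraries, and P2KO and DKO overlapped. The log2 fold change was 0.49 (standard error 0.071, a rise of 40.1%) in DKO against WT with an adjusted p of 1.59e-05 by edgeR's QL test, and it stayed called in every alternative. For P2KO the value was 0.38 with a standard error of 0.071 (edgeR's QL test, adjusted p = 0.00307), and without P2KO replicate 2 it was 0.26 and no longer called (adjusted p = 0.44). In DKO against P2KO it was 0.11 (95% interval -0.03 to 0.25). At 9622 bases of merged exons Tex15 is longer than Tdrd6 (7062) and Tdrd1 (5443).

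Kdm1a, a histone lysine demethylase, was the gene called lower. It had normalized counts of 3699.5 and 3552 in WT, 3191 and 3650.4 in P2KO and 3088 and 2865 in DKO, and the DKO libraries were the lowest. Against WT the DKO libraries gave a log2 fold change of -0.28 with a standard error of 0.066 (edgeR's QL test, adjusted p = 0.00854). Without DKO replicate 2 it was -0.23 and not called (adjusted p = 0.263). Kdm1a lies on chromosome 4 from 136550540 to 136602723, at 4.30 Mb from Padi2. The other genes of the pathway list on this chromosome were not called in DKO against WT. Their log2 fold changes were -0.05 for Kif17, at 2.60 Mb from Padi2, and -0.17 for Spocd1, at 10.9 Mb. The cell type markers on this chromosome were not called in this comparison either. C1qa, at 4.01 Mb, had normalized counts of 143 and 164 in WT and 129 and 117 in DKO. C1qb, at 4.02 Mb, had 216 and 257 in WT and 249 and 213 in DKO. Of the 34 genes only Tdrd7 lies on chromosome 4, at 94.9 Mb from Padi2.

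Some markers of testis cell types were called as well. Between DKO and WT, 7 of the 68 markers were called (10.3%, beside 3.22% of all tested genes). In P2KO against WT 1 was called (1.47%, beside 0.337%), and in DKO against P2KO 2 were called (2.94%, beside 1.21%). Of the 8 Leydig cell markers, 4 were called higher in DKO against WT (Star, Hsd3b6, Cyp17a1 and Cyp11a1, all of steroid synthesis) and 1 lower (Hsd3b1). Cyp11a1 was called in 4 of the 10 alternatives that kept all libraries. Its normalized counts were 2564 and 2644 in WT, 3181 and 3187 in P2KO and 3558 and 2751 in DKO. Lhcgr was not called, with 238 and 276 in WT, 252 and 287 in P2KO and 204 and 193 in DKO. The summed normalized count of the Leydig list was 18672 and 18365 in WT, 20878 and 18732 in P2KO and 24102 and 19946 in DKO. Cyp17a1 alone had 9205 and 8547 in WT, 10524 and 9146 in P2KO and 12655 and 9389 in DKO. Of the 8 markers of elongating spermatids, Prm1 and Tnp1, which package sperm DNA, fell in DKO against WT, and Tnp2 fell in P2KO against WT. The summed count of this list was 458362 and 473357 in WT, 402027 and 433595 in P2KO and 438342 and 425932 in DKO, so that both knockout strains lay below WT. Without DKO replicate 1, Star was the only one of these 7 markers called in DKO against WT. Prm1 was also lost without WT replicate 2, and Prm1 and Tnp1 without DKO replicate 2. In P2KO against WT, Tnp2 was lost without P2KO replicate 1. With DESeq2 on all libraries the 2 markers called were Hsd3b1 and Hsd3b6, and with the replicate number as a block and a gene length offset the 4 were Star, Hsd3b6, Cyp17a1 and Hsd3b1.

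The adult piRNA pathway is most active in spermatocytes and round spermatids. The ratio of the summed DKO count to the summed WT count was 0.983 for spermatocytes and 0.996 for round spermatids, with none of the 16 markers called by edgeR's QL test and 1 at an unadjusted p under 0.05. In P2KO the ratios were 0.986 and 1.046. In DKO against P2KO the round spermatid marker Spaca1 was called lower, a call kept in 6 of the 10 alternatives with all libraries. In DKO the ratio to WT was 0.928 for spermatogonia, 0.963 for Sertoli cells, 1.031 for macrophages, 1.034 for peritubular myoid cells and 1.254 for endothelial cells, lists with no called marker of which 3 had an unadjusted p under 0.05. For the Tudor genes the same ratio was 1.117, and without Tdrd6, the most highly counted of them, it was 1.074. It was 1.074 for the PIWI genes, 0.986 for the processing genes and 1.047 for all 34 genes, or 1.028 without Tdrd6. The summed PIWI count was 15472 and 13604 in WT and 15966 and 15275 in DKO, so the genotypes overlapped, and the Tudor sum was 50413 and 45885 in WT and 53765 and 53788 in DKO, without overlap. Set against WT replicate 1 alone, the ratio was 1.010 for the PIWI genes, 1.067 for the Tudor genes and 1.021 for all 34 genes. Against WT replicate 2 alone the 3 ratios were 1.148, 1.172 and 1.074. The part of cell composition in the values of Tdrd1, Tdrd6 and the other genes was not tested.

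**Figure D4:**
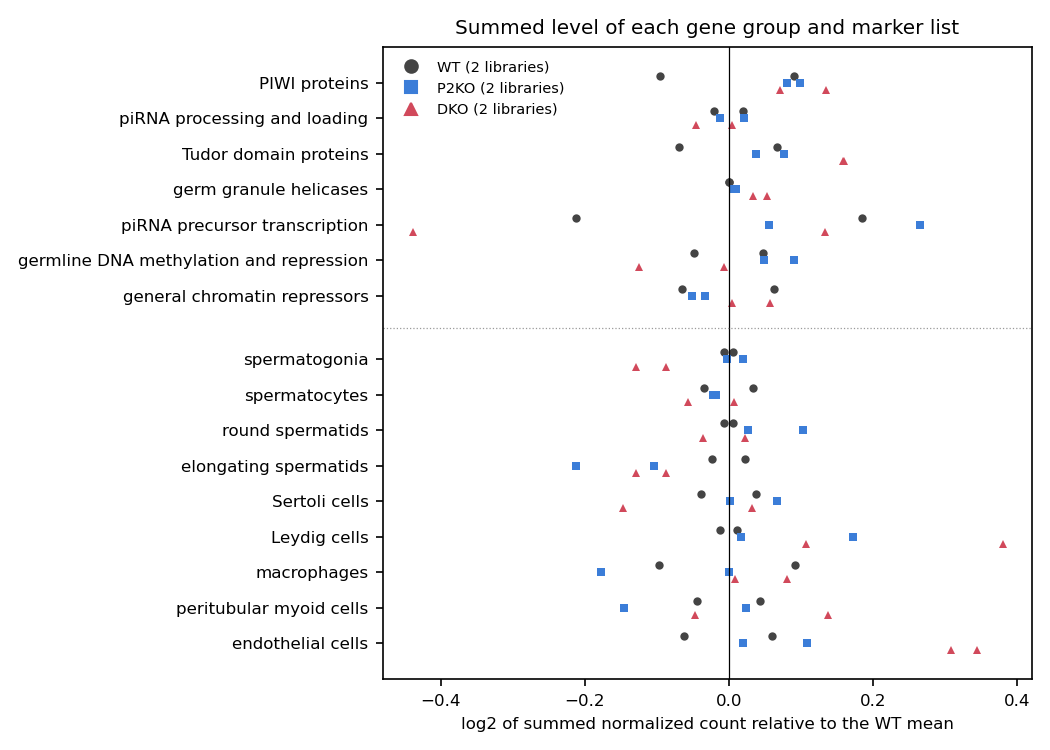
Summed normalized count of each role of the 34 genes (above the dotted line) and of each list of cell type markers (below it), as the log2 ratio to the mean of the 2 WT libraries. Each point is 1 library. The DKO libraries lie above both WT libraries for the Tudor genes, the germ granule helicases and the Leydig and endothelial markers and below them for the markers of spermatogonia and elongating spermatids.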

How the data were processed

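RNA from whole testes of 2 WT, 2 P2KO and 2 DKO mice was sequenced from poly(A)-selected, strand-specific libraries. The authors trimmed reads with Trim Galore, used STAR for alignment to GRCm38 and deposited raw counts per Ensembl gene, without normalization (tool versions are not given in the sources used here, nor is the strand column). Of 498 genes that lie wholly inside exons of the opposite strand, 244 had a count. Positions, lengths and overlaps came from GENCODE mouse release 21, which holds all 55536 identifiers, promoter windows from RefSeq, and near-identical copies from BLAST 2.17.0 (at least 95% identity over at least 150 bases and 50% of the shorter transcript).

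Counts were tested with edgeR 4.0.16 in R 4.3.3 (TMM scaling, filterByExpr with a minimum count of 10, quasi-likelihood fit of all 6 libraries with a genotype term, 3 residual degrees of freedom). Within each comparison, the Benjamini-Hochberg adjustment covered all 20744 tested genes, with calls made under 0.05. The standard error is the absolute log2 fold change divided by the square root of F. An exact permutation test of 2 against 2 libraries cannot reach 0.05.

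Alternatives were RLE or upper-quartile scaling, no filter, a mean of at least 50 counts, a gene length offset (lowess, span 0.3), the replicate number as a block, DESeq2 1.42.0 on all libraries or on 2 genotypes, edgeR on 2 genotypes, and each library left out in turn. Members, lists and tests were chosen with earlier results of these data known. Values in every library were given for PIWI genes, called members, the 5 smallest p-values per comparison and the highest and lowest member per role, and other genes were named where called. Transposon transcripts and protein sequences were not analysed here. Genes with the pattern most like that of the called members are not reported here.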

Additional observations from a re-analysis of the deposited data

How the results depend on the processing

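The calls of Tdrd1, Tdrd6, Tex15 and Kdm1a in DKO against WT kept direction and call under every alternative that kept all libraries. With 2 libraries per genotype, the fits that leave 1 out assume that the lone library varies like the other genotypes. Over these fits the called members ranged from 0 to 2 in P2KO against WT, 0 to 4 in DKO against WT and 0 to 3 in DKO against P2KO. Called genes of the wider pathway ranged from 0 to 1, 1 to 4 and 0 to 2, called markers from 0 to 9, 1 to 8 and 1 to 9, and all called genes from 53 to 311, 250 to 1065 and 108 to 622, in the same order. In DKO against P2KO, 1 member (Tdrd6) was called with no filter, with the length offset or with DESeq2 on the 2 genotypes, and 3 members and 1 pathway gene with edgeR on the 2 genotypes. Over all genes, no filter gave 140 calls in P2KO against WT in place of 70, DESeq2 on all libraries gave 41, 404 and 162 in the 3 comparisons, DESeq2 on the 2 genotypes gave 40 in P2KO against WT and 296 in DKO against WT, and edgeR on the 2 genotypes gave 579 in DKO against P2KO. Called markers in P2KO against WT were 3 with upper-quartile scaling, 7 with no filter, 2 with the length offset and 2 with DESeq2 on the 2 genotypes. In DKO against WT they were 2 with DESeq2 on all libraries, and in DKO against P2KO 4 with no filter, 1 with DESeq2 on all libraries and 8 with edgeR on the 2 genotypes. The median level of the 34 genes was 88.7 as CPM (counts scaled to library size, with no length) in place of 53.9 TPM. Replicate numbers did not pair the libraries (correlations of deviations -0.057, 0.057 and -0.050), and with the replicate number as a block 45 genes were called in P2KO against WT and 1 marker in DKO against P2KO, and with block and length offset 4 markers in DKO against WT and 4 in DKO against P2KO. The block alone changed no call of a member, but added to the length offset it ended the call of Tdrd6 in DKO against P2KO. The log2 fold change of Tdrd6 in P2KO against WT (0.03) turned to -0.0051 with the length offset and -0.0045 with block and offset. Leaving out 1 library turned the sign of uncalled values, which ranged in P2KO against WT from -0.0266 to 0.143 for Piwil1, -0.11 to 0.42 for Piwil4, -0.0685 to 0.1201 for Tdrd6 and -0.1866 to 0.0103 for Kdm1a. In DKO against WT the range for Piwil1 was -0.0143 to 0.1539. In DKO against P2KO they ranged from -0.0293 to 0.0514 for Piwil1, -0.0439 to 0.0871 for Piwil2, -0.16 to 0.37 for Piwil4 and -0.002 to 0.23 for Tex15. Piwil4 has no value under the filter on a mean of 50 counts. The causes of these shifts were not tested. Depth limits the low genes, and 2 mice per genotype limit all of them.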

Other observations

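The other genes of the pathway were described by group. Of 15 further piRNA genes, 9 had log2 fold changes above 0 in DKO against WT with a median of 0.015, and Tex15 was the call among them. Of 18 heterochromatin genes, 11 were above 0 with a median of 0.051, and Kdm1a was the call. Of the 5 DNA methylation genes, none was called by edgeR's QL test, 1 had an unadjusted p under 0.05 and the median was 0.044. Of the 4 genes that restrict retroelements, 3 passed the filter, none was called or had an unadjusted p under 0.05, and the median was 0.029. The remaining gene, Trex1, had a count of 0 in every library. It shares 100% of its merged exon bases with Atrip on the same strand, so this count does not show that it is silent.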
